A study of Mus musculus with 6 samples.

Results

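The 8 genes described here are the sialic acid binding lectins of the Siglec family that were followed beside *Cd22*, namely *Cd22*, *Siglecg*, *Siglece*, *Siglecf*, *Cd33*, *Siglech*, *Siglec15* and *Siglec1*. They were chosen by symbol: every non-control probe whose design transcript carries one of these names was taken, which gave 14 of 56601 probes tested, for 8 of 23462 genes with a named probe. Microglia, the resident macrophages of the brain, were sorted from young mice and their RNA was read on 6 Agilent arrays hybridised in 1 colour. The 3 control samples came from *Bhlhe41* dTomato-Cre/+ mice (B41HET) and the 3 knockout samples from *Bhlhe41* dTomato-Cre/dTomato-Cre mice (B41KO). Both genotypes therefore carry the dTomato-Cre allele, in which a reporter and Cre cassette placed ahead of the start codon ends translation of *Bhlhe41*, a transcriptional repressor that binds E-box sequences, and the *Bhlhe41* promoter drives the cassette. The allele is present in all cells of the animal. No wild-type sample was on the arrays. Several young adult mice, 3 months of age, were pooled for a sample as the Methods and figure legends state, and the sorted cells were live, CD45lo, *Cx3cr1*+ and CD11b+ cells from a Percoll-enriched fraction.

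Siglecs are surface receptors that bind sialic acids, the acidic sugars that cap many glycans on the body's own cells. Most members, among them CD22 and Siglec-G, carry inhibitory motifs in their cytoplasmic tail that recruit the phosphatases encoded by *Ptpn6* and *Ptpn11* once Src family kinases have phosphorylated them. Siglec-H and Siglec-15 instead pair with the activating adaptor DAP12, the product of *Tyrobp*, and Siglec-1 (sialoadhesin) has a long extracellular part and no inhibitory motif. CD22 and Siglec-G are best known from B cells, Siglec-F from eosinophils and alveolar macrophages, Siglec-H from microglia and plasmacytoid dendritic cells, and Siglec-1 from tissue macrophages.

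The promoters of 3 members are shown first, for *Cd22* and *Siglecg* because their signals differed between the genotypes in opposite directions, and for *Siglech* because its window held CACGTG, the E-box letters that *Bhlhe41* binds. Each is the RefSeq window from 250 bases before to 50 bases after the transcription start on GRCm38.p6, printed along the strand of the gene, with CACGTG in capitals. Windows were matched for 6 members, *Siglecg* with 2 overlapping ones of which the upstream one is shown, and not for *Siglec1* and *Siglec15*.
*Cd22* (chr7:30878979-30879278, minus strand): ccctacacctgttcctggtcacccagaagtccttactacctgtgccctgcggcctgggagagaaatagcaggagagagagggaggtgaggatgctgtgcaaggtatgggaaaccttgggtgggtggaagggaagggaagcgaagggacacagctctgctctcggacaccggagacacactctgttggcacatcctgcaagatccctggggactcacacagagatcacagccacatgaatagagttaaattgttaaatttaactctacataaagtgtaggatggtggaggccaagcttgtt
*Siglecg* (chr7:43407989-43408288, plus strand): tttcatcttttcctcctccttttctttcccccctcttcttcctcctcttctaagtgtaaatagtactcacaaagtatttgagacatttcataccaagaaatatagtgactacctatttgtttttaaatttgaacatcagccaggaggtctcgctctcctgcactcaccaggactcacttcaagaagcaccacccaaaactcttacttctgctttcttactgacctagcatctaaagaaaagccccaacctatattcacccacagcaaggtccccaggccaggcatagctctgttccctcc
*Siglech* (chr7:55767934-55768233, plus strand): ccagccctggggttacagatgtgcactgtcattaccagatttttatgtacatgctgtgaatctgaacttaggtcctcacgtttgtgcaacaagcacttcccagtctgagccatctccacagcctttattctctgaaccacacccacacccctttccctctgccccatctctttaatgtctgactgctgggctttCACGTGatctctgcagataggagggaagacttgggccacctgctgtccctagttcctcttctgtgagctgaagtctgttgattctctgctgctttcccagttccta

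CACGTG reads the same on both strands and was found in 1 of the 6 members, *Siglech*, where it began 56 bases before the start (position -56), against 8.09% of the 27025 genes with such a window. GAGGAA, the core of the motif bound by the myeloid factor PU.1, was searched on both strands and lay in the windows of 5 of the 6 members, all but *Cd22*, against 31.3% of those genes. The letters of the 2 motifs do not overlap. These are matches of letters in a short window, and the lack of one in the *Cd22* window says nothing about sites further upstream of that gene or about binding. The paper reports CACGTG further upstream in the *Cd22* promoter, outside this window, with Bhlhe41 bound there by chromatin immunoprecipitation. Among the 15 pairs of members, *Siglecf* and *Cd33* shared the longest run, 16 bases, which began at position -27 in *Siglecf* and -157 in *Cd33* and was found in no window other than these 2. The longest run shared by any other pair had 10 bases. Both windows are shown with the shared run in capitals.
*Siglecf* (chr7:43351091-43351390, plus strand): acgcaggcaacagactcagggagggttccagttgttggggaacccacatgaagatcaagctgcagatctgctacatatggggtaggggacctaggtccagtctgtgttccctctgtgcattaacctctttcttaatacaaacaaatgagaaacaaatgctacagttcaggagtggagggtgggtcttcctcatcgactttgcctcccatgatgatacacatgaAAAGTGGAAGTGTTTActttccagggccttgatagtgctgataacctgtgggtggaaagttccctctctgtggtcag
*Cd33* (chr7:43533122-43533421, minus strand): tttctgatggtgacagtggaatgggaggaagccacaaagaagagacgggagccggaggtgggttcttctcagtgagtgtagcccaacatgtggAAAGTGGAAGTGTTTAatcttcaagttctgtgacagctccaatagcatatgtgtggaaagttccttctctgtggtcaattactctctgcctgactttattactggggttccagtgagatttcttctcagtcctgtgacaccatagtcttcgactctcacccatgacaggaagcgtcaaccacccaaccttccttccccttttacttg

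The labelled cell type was checked against its markers. All 10 microglia markers were well above background on all 6 arrays, with a list median of log2 signal between 13.31 and 13.51 in B41HET and between 13.11 and 13.22 in B41KO. Of the 10, 7 had changes below 0 and 1 was called, against 5.45% of all genes, namely *Fcrls*, which was lower in B41KO (log2 fold change -0.76, limma adjusted p = 0.00581) and was named after its value was seen. The 2 brightest, *Cx3cr1* and *Tmem119*, were not called (-0.24 and -0.05). Markers of blood-borne myeloid cells were present too: of 12 monocyte and neutrophil markers 9 were called lower in B41KO, against 4.01% of all genes, with a median log2 fold change of -2.16, and the summed signal of the list was 31300 to 35200 in B41HET and 5930 to 6410 in B41KO. All 14 Siglec family probes were themselves well above background on all 6 arrays. In bulk samples fewer cells of a type and less RNA per cell cannot be told apart. The 2 *Bhlhe41* probes had log2 fold changes of 0.38 (limma adjusted p = 0.33) and 0.33 (adjusted p = 0.203) and were not lower in B41KO. The allele ends translation, so these transcript values are no check of the labels. All arrays lay on 1 slide, the 3 B41HET arrays and that of B41KO replicate 1 in row 1 and the other two B41KO arrays in row 2.

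Seen as a family, the Siglec genes did not move together. A probe was called when its Benjamini-Hochberg adjusted p in limma, taken over all probes, was 0.05 or less and its log2 fold change was at least 0.5 in size. By this rule 4 of the 14 probes were called, against 5.07% of all probes. One of them, for *Cd22*, was higher in B41KO, where 1.72% of all probes were called, and 3 of them, 2 for *Siglecg* and 1 for *Siglecf*, were lower, where 3.34% of all probes were called. In 8 of the 14 probes the 3 samples of one genotype all lay above the 3 of the other, against 29.7% of all probes. The median log2 fold change over the 14 probes was 0.01, and over all probes 0.02, with 7 of the 14 above 0 and 7 below. The median absolute change was 0.32 over the 14 and 0.19 over all probes. When the probe with the highest mean signal stood for each gene, 1 of 8 members was called, *Siglecg*, against 5.45% of all genes. Averaging each gene's probes it was again *Siglecg* alone (4.52% of all genes), and with the probe of the lowest p it was 3 members, *Cd22*, *Siglecf* and *Siglecg* (7.34% of all genes). *Cd22* and *Siglecg* are on the paper's shared gene list, which compared these same samples with public RNA sequencing of *Bhlhe40* and *Bhlhe41* double knockout microglia. Their directions here are therefore not independent evidence. The paper also reported higher CD22 protein on B41KO microglia by flow cytometry and immunofluorescence.

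**Figure D1:**
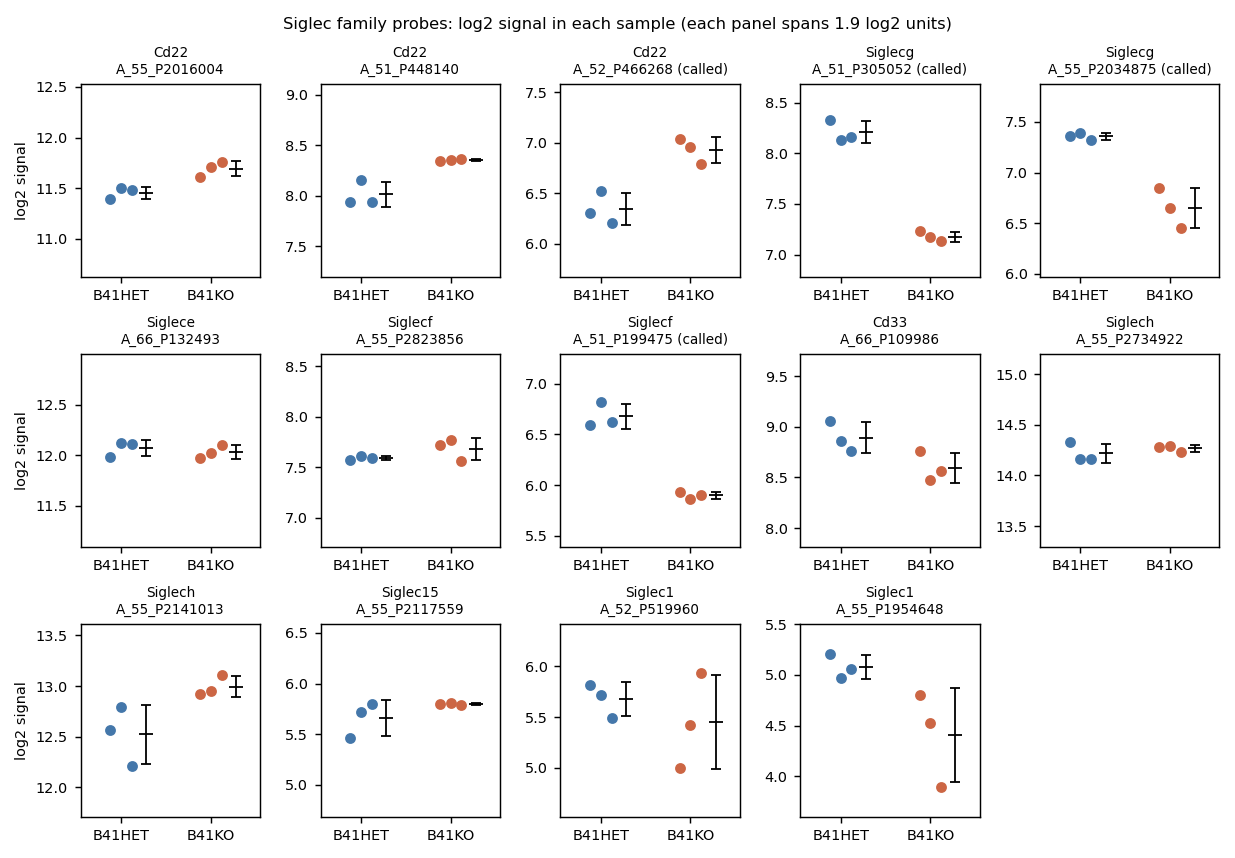
Log2 signal of each of the 14 Siglec family probes in the 3 B41HET samples (blue) and the 3 B41KO samples (orange), with the mean and SD of each genotype in black, and every panel spanning the same number of log2 units. Both *Siglecg* probes, the dimmer *Siglecf* probe and all 3 *Cd22* probes separate the genotypes, while *Siglece* and the brighter *Siglech* probe overlap.

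*Cd22*, whose product is an inhibitory receptor best known for restraining B cell receptor signals, was higher in B41KO on all 3 of its probes, by a different amount on each. The brightest probe (A_55_P2016004), designed on another RefSeq transcript of the gene than the other two, gave log2 signals of 11.39, 11.50 and 11.48 in B41HET and of 11.61, 11.71 and 11.76 in B41KO. All 3 B41KO samples lay above all 3 B41HET samples, with 0.11 between the nearest 2. The log2 fold change was 0.24 (SE 0.08, 95% interval 0.05 to 0.43, limma adjusted p = 0.14), a 1.18-fold difference, and it was not called.

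The second *Cd22* probe (A_51_P448140) gave log2 signals of 7.94, 8.16 and 7.94 in B41HET and of 8.34, 8.35 and 8.36 in B41KO. Again the genotypes did not overlap, and the B41KO samples were almost level with each other. Its log2 fold change was 0.34 (SE 0.09, 95% interval 0.12 to 0.55, limma adjusted p = 0.0828), below the fold threshold. The dimmest probe (A_52_P466268) gave 6.31, 6.52 and 6.21 in B41HET and 7.04, 6.96 and 6.79 in B41KO. Here too every B41KO sample was the higher, and this was the called *Cd22* probe, with a log2 fold change of 0.59 (SE 0.12, 95% interval 0.30 to 0.87, limma adjusted p = 0.0446), a 1.5-fold difference. The call was lost when any one of the 6 samples was left out (adjusted p from 0.0719 to 0.132), while the log2 fold change stayed between 0.52 and 0.67. After another background correction (normexp) it was 0.36 (limma adjusted p = 0.0378), under the fold threshold. Blocking on slide row, which leaves B41KO replicate 1 against the 3 B41HET samples of its row, gave 0.70.

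The 3 *Cd22* probes gave changes whose differences could be tested within samples. The log2 fold change of the dimmest probe was 0.35 above that of the brightest, without overlap of the genotypes (two-sided exact permutation p = 0.1, the smallest that 3 samples against 3 allow). The middle and brightest probes differed by 0.10 (exact permutation p = 0.3). Averaged over its 3 probes, the log2 fold change of *Cd22* was 0.39 (SE 0.08, limma adjusted p = 0.0438), still under the fold threshold. On the brightest probe, 4512 of 23462 genes had a larger increase than *Cd22*. Its profile over the 6 samples, centred on the B41HET mean, was shared by many genes: 1142 of the 18395 genes compared lay within a root mean square difference of 0.1, and the 5 nearest were *5830444B04Rik* (0.012), *2610528J11Rik* (0.019), *Scand1* (0.020), *Gm19510* (0.022) and *Rps23rg1* (0.022). *Mag*, the gene next to *Cd22* and itself a sialic acid binding lectin of myelin-forming cells, gave log2 signals of 7.22, 7.33 and 7.11 in B41HET and 6.77, 7.24 and 7.39 in B41KO. The genotypes overlapped and its log2 fold change was -0.09 (SE 0.18, limma adjusted p = 0.824).

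*Siglecg*, which encodes an inhibitory receptor known from B-1 cells, was the member with the largest change and went the opposite way to *Cd22*. Its brighter probe (A_51_P305052) gave log2 signals of 8.33, 8.13 and 8.16 in B41HET and of 7.23, 7.17 and 7.13 in B41KO. The genotypes were 0.90 apart at their nearest samples, several times the range within either genotype (0.21 and 0.09). Between the genotypes the log2 fold change was -1.03 (SE 0.08, 95% interval -1.24 to -0.82, limma adjusted p = 0.00526), so B41HET was 2.04-fold higher (95% interval 1.77 to 2.36). By this probe, 340 of 23462 genes had a larger decrease.

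The dimmer *Siglecg* probe (A_55_P2034875), designed on the same transcript, gave 7.36, 7.39 and 7.32 in B41HET and 6.85, 6.65 and 6.45 in B41KO. All B41KO samples were lower here as well, with a wider spread among them than among the B41HET samples. Its log2 fold change was -0.71 (SE 0.11, 95% interval -0.99 to -0.43, limma adjusted p = 0.0274), smaller in size by 0.32 than that of the brighter probe (exact permutation p = 0.1, the smallest possible). The brighter probe stayed called when each sample was left out in turn (adjusted p from 0.0254 to 0.0309). The dimmer one stayed called only without B41KO replicate 1 (log2 fold change -0.81, adjusted p = 0.0369). Without each of the other 5 samples its log2 fold change lay between -0.73 and -0.61, with adjusted p from 0.0538 to 0.103. Blocked on slide row the changes were -0.98 (adjusted p = 0.0625) and -0.51 (adjusted p = 0.166).

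Fewer genes lay near the profile of *Siglecg* than near that of *Cd22*. The comparison was by absolute difference, so a larger change alone leaves fewer genes near. Of the 18395 genes compared, 37 lay within a root mean square difference of 0.1 of *Siglecg*. The 5 nearest were *Kctd3* (0.040), *Slc5a2* (0.049), *Nectin2* (0.058), *Cldnd1* (0.063) and *H2bc4* (0.065). All 5 were called lower in B41KO, with log2 fold changes from -0.96 to -1.08, a likeness that the matching itself brings. *Siglecf* and *Siglecg* are neighbours on chromosome 7, and their brightest probes had changes of 0.09 and -1.03.

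*Cd22* and *Siglecg* are both used as B cell genes, so B cell markers are given beside them. Of 12 B cell markers, 2 were called and both were lower in B41KO, where 4.01% of all genes were called. The 2 were *Cd79a*, a signalling chain of the B cell receptor (log2 fold change -0.99, limma adjusted p = 0.00919), and *Bank1*, a B cell adaptor (-0.62, adjusted p = 0.0296), both named after their values were seen. The 2 brightest, *Blnk* and *Cd79b*, had changes of -0.04 and 0.02 and were not called. *Ms4a1* and *Fcmr* were not well above background on any array. The summed signal of the list was 2580 to 2880 in B41HET and 2550 to 2650 in B41KO, a sum that weights *Blnk* and *Cd79b* most. The list median of log2 signal did not overlap, at 5.63 to 5.77 in B41HET and 5.11 to 5.25 in B41KO. *Cd79a*, with mean log2 signals of 6.13 and 5.14, lay near that median. Of the 12 markers, 8 had changes below 0 and 4 above, with a median change of -0.11. The part of B cell transcripts in the values of *Cd22* and *Siglecg* was not tested.

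**Figure D2:**
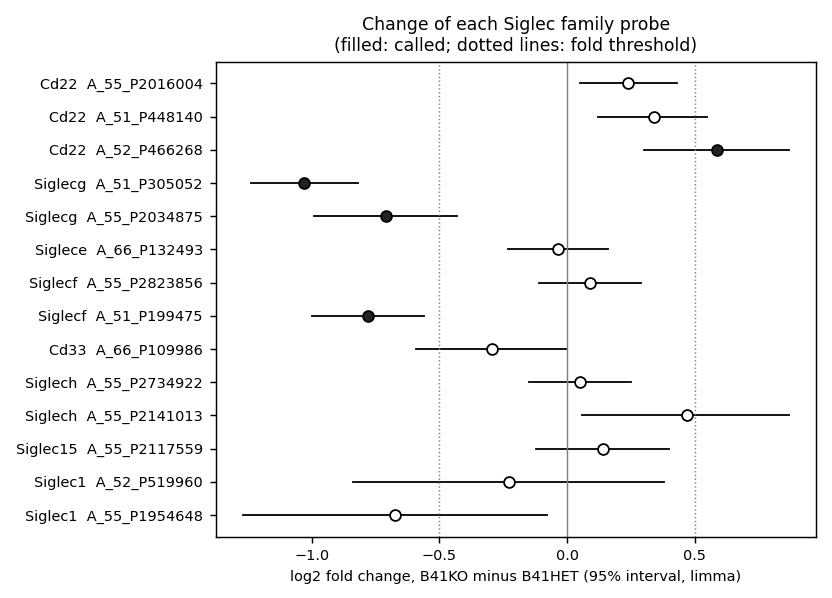
Log2 fold change of B41KO minus B41HET for each of the 14 Siglec family probes, with the 95% interval from limma, filled where the probe was called, and dotted lines at the fold threshold of 0.5. The intervals of the 3 *Cd22* probes lie above 0 and those of the 2 *Siglecg* probes below it, and the 2 *Siglecf* probes have intervals that do not meet.

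*Siglece*, an inhibitory Siglec that dampens inflammatory responses of myeloid cells, had the smallest change of the inhibitory members. Its probe (A_66_P132493) gave log2 signals of 11.98, 12.12 and 12.11 in B41HET and of 11.97, 12.02 and 12.10 in B41KO. The genotypes overlapped along nearly their whole range. The log2 fold change was -0.04 (SE 0.08, limma adjusted p = 0.827), with a 95% interval of -0.23 to 0.16 that leaves room for a change of either sign but not for one as large as 0.5.

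*Siglecf*, which encodes an inhibitory receptor of eosinophils and alveolar macrophages, gave 2 different readings from 2 probes on the same transcript. The brighter probe (A_55_P2823856) gave log2 signals of 7.57, 7.61 and 7.59 in B41HET and of 7.72, 7.77 and 7.56 in B41KO. One B41KO sample fell below the B41HET samples and the other two above them, for a log2 fold change of 0.09 (SE 0.08, 95% interval -0.11 to 0.29, limma adjusted p = 0.579). The dimmer probe (A_51_P199475) gave 6.59, 6.82 and 6.62 in B41HET and 5.93, 5.86 and 5.90 in B41KO. The genotypes were 0.66 apart at their nearest samples. This probe was called lower in B41KO, with a log2 fold change of -0.78 (SE 0.09, 95% interval -1.0 to -0.56, limma adjusted p = 0.0112), and B41HET was 1.72-fold higher.

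The 2 *Siglecf* probes differed by 0.87 in their log2 fold changes, the widest gap between probes of one member (exact permutation p = 0.1, the smallest possible). The call of the dimmer probe was lost without B41KO replicate 2 (log2 fold change -0.76, adjusted p = 0.0503) and held without each of the other 5 samples. Blocked on slide row its change was -0.74 (adjusted p = 0.107). Averaged over both probes the change of *Siglecf* was -0.34 (limma adjusted p = 0.0488), under the fold threshold. Of 8 eosinophil markers, 3 were called, all lower in B41KO (4.01% of all genes), and the list median change was -0.55. *Il5ra*, a chain of the interleukin receptor that eosinophils use, had a change of 0.38 and was not called, and *Ear1*, an eosinophil ribonuclease, had a change of -2.95 (limma adjusted p = 0.00364). The summed signal of the list was 759 to 795 in B41HET and 547 to 650 in B41KO. No marker of the list was below background on all arrays. The part of eosinophil transcripts in the *Siglecf* values was not tested.

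*Cd33*, a myeloid Siglec whose human counterpart is known for its association with Alzheimer's disease, had lower values in B41KO without being called. Its probe (A_66_P109986) gave log2 signals of 9.06, 8.86 and 8.76 in B41HET and of 8.76, 8.47 and 8.56 in B41KO. The lowest B41HET sample and the highest B41KO sample met at the same value. Its log2 fold change was -0.29 (SE 0.12, 95% interval -0.59 to 0.00, limma adjusted p = 0.219), and blocked on slide row it was -0.13 (adjusted p = 0.781). The 2 brightest monocyte and neutrophil markers were *Lcn2* (log2 fold change -1.81, limma adjusted p = 0.00107) and *Ltf* (-3.17, adjusted p = 0.00104), both neutrophil granule proteins. No marker of that list was below background on all arrays, and the part of those cells in the *Cd33* values was not tested.

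*Siglech*, the Siglec by which microglia are often told from other brain macrophages, had one level probe and one with higher values in B41KO. The brighter probe (A_55_P2734922) gave log2 signals of 14.33, 14.16 and 14.16 in B41HET and of 14.28, 14.29 and 14.23 in B41KO. These values overlapped, with a log2 fold change of 0.05 (SE 0.08, 95% interval -0.15 to 0.25, limma adjusted p = 0.761). The dimmer probe (A_55_P2141013), designed on another transcript of the gene, gave 12.57, 12.79 and 12.21 in B41HET and 12.92, 12.95 and 13.11 in B41KO. The genotypes did not overlap, but the B41HET samples spread over 0.59. On this probe the log2 fold change was 0.47 (SE 0.16, 95% interval 0.06 to 0.87, limma adjusted p = 0.163) and was not called. It was called after normexp correction of the median spot signals with an offset of 50 (0.62, adjusted p = 0.0147). Without B41HET replicate 3 it fell to 0.31 (adjusted p = 0.232). The 2 probes differed by 0.42 (exact permutation p = 0.1, the smallest possible). Of 8 plasmacytoid dendritic cell markers 5 had changes above 0, with a list median of 0.20, and 1 was called (5.45% of all genes). It was *Cox6a2*, higher in B41KO by 0.76 (limma adjusted p = 0.00732), where 1.44% of all genes were called. *Cox6a2* was named after its value was seen. The 2 brightest, *Tcf4* and *Pacsin1*, had changes of -0.24 and -0.30 and were not called. The summed signal of that list was 3560 to 3850 in B41HET and 3300 to 3570 in B41KO. Their part in the *Siglech* values was not tested.

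*Siglec15*, which encodes an activating Siglec that takes part in osteoclast formation, had overlapping values. Its probe (A_55_P2117559) gave log2 signals of 5.46, 5.72 and 5.80 in B41HET and of 5.80, 5.81 and 5.79 in B41KO. The B41KO samples sat at the top of the B41HET range, for a log2 fold change of 0.14 (SE 0.11, 95% interval -0.12 to 0.40, limma adjusted p = 0.504). It was 0.04 without B41HET replicate 1 and 0.23 with the arrays shifted to their 75th percentile, and called in neither. Of 8 osteoclast markers 1 was called (5.45% of all genes), *Mmp9*, which neutrophils also make and which is on the neutrophil list too (log2 fold change -3.00). Over the list, 3 markers had changes above 0 and 5 below, with a median of -0.08. The other brightest marker, *Oscar*, had a change of 0.06, and *Acp5*, an osteoclast phosphatase named after its value was seen, one of 0.63 (limma adjusted p = 0.0859) with no overlap of the genotypes. *Ctsk* and *Calcr* were not well above background on any array. The summed signal of that list was 1280 to 1300 in B41HET and 568 to 595 in B41KO. It includes *Mmp9*, at log2 signals of 9.80, 9.77 and 9.71 in B41HET and 6.78, 6.82 and 6.68 in B41KO. In B41HET *Mmp9* was the brightest marker of the list, and no sum without it was taken.

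*Siglec1*, the adhesion receptor of tissue macrophages, had the widest spread among the B41KO samples. The brighter probe (A_52_P519960) gave log2 signals of 5.82, 5.72 and 5.49 in B41HET and of 5.0, 5.42 and 5.93 in B41KO. The B41KO samples spanned 0.93 and reached both below and above the B41HET samples, for a log2 fold change of -0.23 (SE 0.25, 95% interval -0.84 to 0.38, limma adjusted p = 0.649). The dimmer probe (A_55_P1954648), on the same transcript, gave 5.21, 4.97 and 5.06 in B41HET and 4.80, 4.53 and 3.89 in B41KO. Here all B41KO samples were lower, but B41KO replicate 3, the highest sample on the brighter probe, was the lowest on this one. The log2 fold change was -0.67 (SE 0.24, 95% interval -1.27 to -0.08, limma adjusted p = 0.173). The changes of the 2 probes differed by 0.45 (exact permutation p = 0.6). Without B41KO replicate 1 the changes of the brighter and dimmer probe were 0.00 and -0.87. They were -0.47 and -0.42 without B41KO replicate 3 and -0.12 and -0.18 after normexp correction. None of these was called. Blocked on slide row the changes of the brighter and dimmer probe were -0.68 and -0.28. Averaged over both, the change was -0.45 (SE 0.09, adjusted p = 0.0389), under the fold threshold.

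Markers of border macrophages, the cells of the meninges and vessel walls that carry Siglec-1, are given beside *Siglec1*, neither probe of which was called. Of 12 such markers 6 were called, all lower in B41KO (4.01% of all genes), and all 12 had changes below 0, with a median of -1.06, while 51.2% of all genes had changes above 0. The summed signal of the list was 2620 to 2810 in B41HET and 1770 to 1940 in B41KO, and none of the 12 was below background on all arrays. The 2 brightest, *Stab1* and *Folr2*, had changes of -0.49 (limma adjusted p = 0.028) and -0.25 (adjusted p = 0.162) and were not called. Their part in the *Siglec1* values was not tested.

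**Figure D3:**
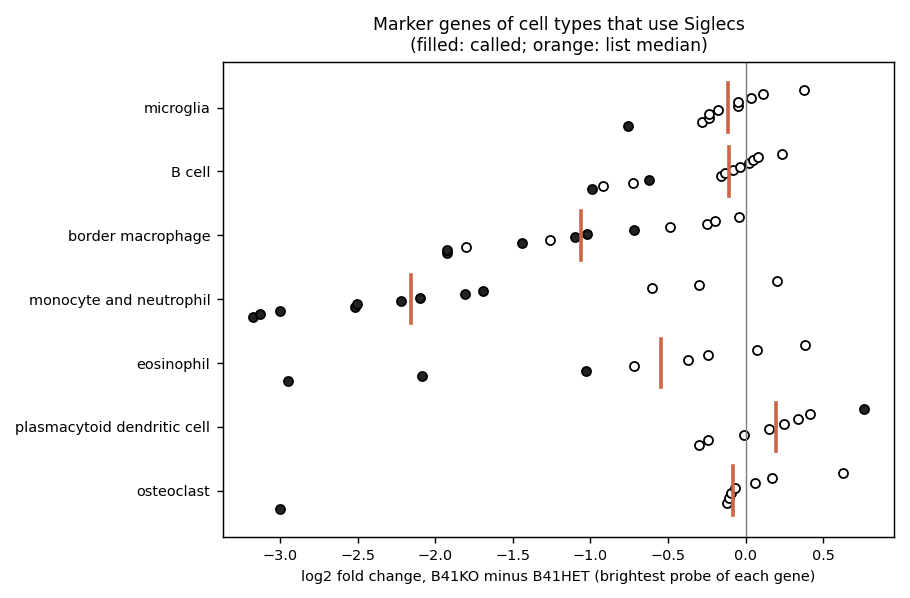
Log2 fold change of B41KO minus B41HET for the brightest probe of each marker gene of 7 cell types, filled where the gene was called, with the list median in orange. The microglia and B cell medians lie at -0.12 and -0.11, and the border macrophage and the monocyte and neutrophil medians at -1.06 and -2.16.

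The genes that make, attach and remove sialic acid, and those that carry Siglec signals inside the cell, were read next. Over 4 lists with 48 genes, 5 were called, all lower in B41KO, against 5.45% of all genes by the brightest probe and 4.01% called lower. The medians of the 4 lists lay between -0.08 and 0.06, and that of all genes at 0.01. By the brightest probe none of the 8 genes of sialic acid synthesis was called by limma, while 2 had an unadjusted p under 0.05, as did 5873 of all 23462 genes. Of these 8, the 3 with the lowest p were *Nans*, the sialic acid synthase (log2 fold change -0.42, adjusted p = 0.0421, below the fold threshold), *Slc35a1*, the Golgi transporter of the activated sugar (-0.31, adjusted p = 0.0998), and *Cmah*, which hydroxylates the activated sugar (0.22, adjusted p = 0.249), of which another probe was called lower in B41KO.

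Of 20 sialyltransferases, which attach sialic acid to glycans, 1 was called, a share near the 5.45% of all genes. *St8sia6*, which adds sialic acid to sialic acid, gave log2 signals of 3.94, 4.02 and 4.17 in B41HET and of 2.90, 3.10 and 2.86 in B41KO. The genotypes did not overlap, and 1 of the 3 B41KO arrays was well above background. Its change was -1.09 on the log2 scale (SE 0.10, limma adjusted p = 0.0074) and rests in part on values near background in B41KO. It stayed called when each sample was left out in turn and was not called after normexp background correction. The next 2 by p were *St6galnac4* (-0.30, adjusted p = 0.063) and *St6galnac3* (0.77, adjusted p = 0.0756). Of the 6 sialidases and esterases, which remove or trim sialic acid, none was called and none had an unadjusted p under 0.05. The 3 with the lowest p were *Neu3* (0.42, adjusted p = 0.348), *Neu4* (0.43, adjusted p = 0.408) and *Siae* (-0.18, adjusted p = 0.42).

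Of 14 adaptors, kinases and phosphatases of Siglec signalling, 4 were called, all lower in B41KO, where 4.01% of all genes were called. *Fgr*, a Src family kinase of myeloid cells, gave log2 signals of 9.28, 9.17 and 9.27 in B41HET and of 8.63, 8.62 and 8.91 in B41KO, a change of -0.52 (SE 0.10, limma adjusted p = 0.0462). *Fyn*, another kinase of that family, gave 4.79, 4.66 and 4.51 in B41HET and 4.04, 4.12 and 4.11 in B41KO, a change of -0.56 (SE 0.09, adjusted p = 0.0296). In both kinases every B41KO sample was the lower. *Shc1*, an adaptor, gave 9.18, 8.94 and 8.97 in B41HET and 8.62, 8.48 and 8.42 in B41KO, a change of -0.53 (SE 0.10, adjusted p = 0.0424). *Socs3*, a feedback inhibitor of cytokine signals that Siglec tails can bind, gave 11.25, 11.25 and 11.08 in B41HET and 10.56, 10.51 and 10.44 in B41KO, a change of -0.69 (SE 0.08, adjusted p = 0.013). Again neither gene had overlapping genotypes. The other 10 of the list, with *Tyrobp*, the adaptor of Siglec-H, and *Ptpn6* and *Ptpn11*, the phosphatases of the inhibitory tails, were not called. Of the 12 monocyte and neutrophil markers 9 were called lower in B41KO too, with a median of -2.16. The part of those cells in the values of these signalling genes was not tested.

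The number of pathway genes called depended on single samples. It was 1 without B41HET replicate 1, without B41HET replicate 2 and without B41KO replicate 2, where *St8sia6* alone was called, 2 without B41KO replicate 1, and 3 without B41HET replicate 3 and without B41KO replicate 3. The genes called also differed with the processing: with the shift to the 75th percentile they were *Socs3*, *St8sia6* and *Cbl*, and after normexp *Socs3* and *Cbl*, so that *Fgr*, *Fyn* and *Shc1* lost the call under both. Blocked on slide row no pathway gene was called.

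**Figure D4:**
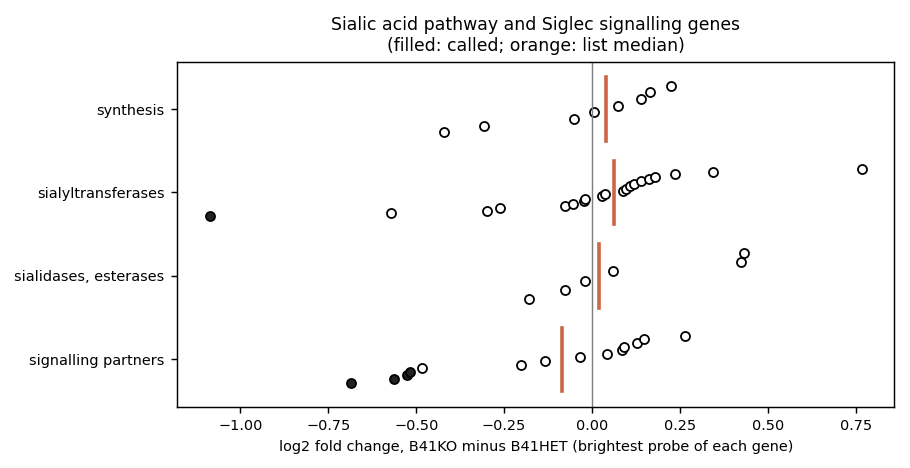
Log2 fold change of B41KO minus B41HET for the brightest probe of the 48 genes of sialic acid synthesis, transfer and removal and of Siglec signalling, filled where the gene was called, with the list median in orange. The 5 called genes all lie below -0.5, and the 4 medians lie close to 0.

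The values of the members were then set side by side under the other processing choices. With arrays shifted to their 75th percentile instead, with the processed values of the authors, with outlier spots kept, with a filter on dim probes and with limma's trend and robust variance, the same 4 probes were called. After normexp background correction, where 2.65% of all probes were called, 2 member probes passed, the brighter *Siglecg* probe and the dimmer *Siglech* probe. Leaving out 1 sample left 1 to 3 of the 4, lowest without B41KO replicate 2, where the brighter *Siglecg* probe alone was called. It was 2 without each B41HET sample and without B41KO replicate 3, and 3 without B41KO replicate 1. Blocked on slide row, where 0.784% of all probes were called, no member probe was called. The brighter *Siglecg* probe was the one member probe called in all of these but the last.

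**Figure D5:**
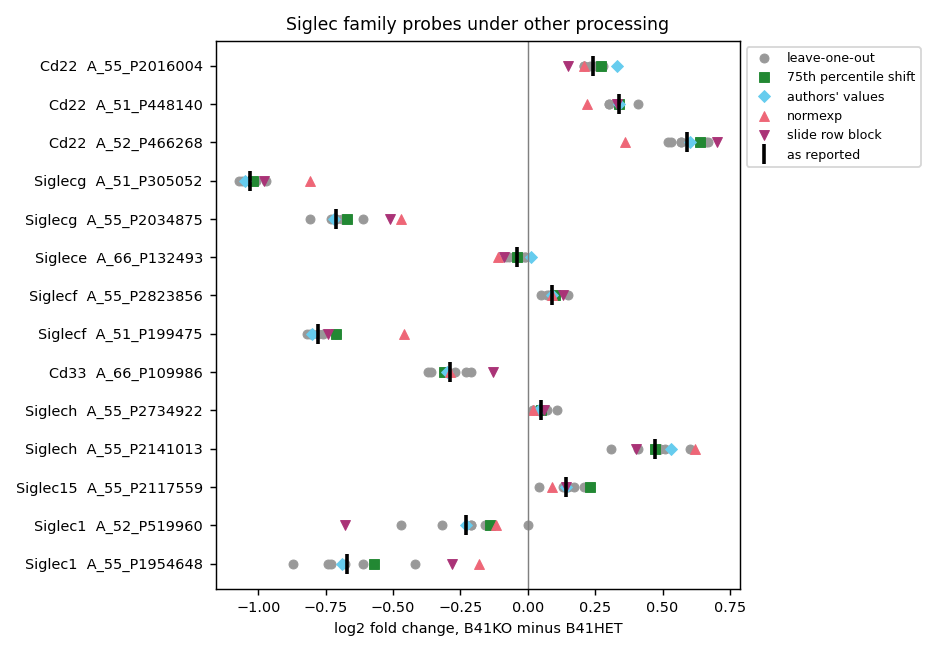
Log2 fold change of B41KO minus B41HET for each of the 14 Siglec family probes as reported (black bar) and under other processing, with 1 grey point for each sample left out. The *Siglecg* probes stay below 0 and the *Cd22* probes above 0 under every choice drawn, and the *Siglec1* probes move the most.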

How the data were processed

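RNA of 6 samples of sorted microglia, 3 B41HET and 3 B41KO, was hybridised in 1 colour. The authors deposited the scanner output of each array, whose intensities were background-subtracted and detrended with Agilent Feature Extraction 11.5.1.1 with no scaling across arrays, and also their processed log2 values for all arrays, used as an alternative. Control spots and 95 to 136 outlier spots per array were left out. Log2 processed intensities were quantile normalized, spots of a probe were averaged, and genotype was tested with limma 3.58.1 in R 4.3.3 over all 56601 probes with Benjamini-Hochberg adjustment. Quantile normalization, limma and the thresholds (adjusted p of 0.05, absolute log2 fold change of 0.5) are those of the Methods. The labels give 3 mice a genotype, while the Methods describe pooled samples, so p-values measure the spread between these samples.

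Probes were named through their transcript accessions in a RefSeq table on GRCm38.p6, which named 33767 (59.7%). The array design names mm9, so no probe coordinates are given. On an array 70.1% to 75.5% of probes were well above background and 0 spots were saturated, and the number of arrays limits the precision. The probe with the highest mean signal stood for a gene. Signals of different probes were set together only to pick the brightest and to sum a list within a sample. The members and gene lists were chosen with earlier results of these data known. Named were all members, every called pathway gene with the lowest p up to 3 of a list, the 2 brightest genes of a marker list, and the 5 genes nearest in profile to *Cd22* and *Siglecg*. Marker genes outside this rule are marked as named after their values were seen, and B cell and osteoclast markers not above background on any array are named as such. Single differences were tested by exact permutation over samples. The model was tested on simulated data. Alternatives were another normalization, background correction, filter, variance model, block, sample set and probe choice. The normexp correction used median spot and background signals and an offset of 50. Promoters were read with pandas 2.3.3 in Python 3.11.15 and figures drawn with matplotlib 3.10.9.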

Additional observations from a re-analysis of the deposited data

How the results depend on the processing

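The number of Siglec family probes called was 4, and it was 2 after normexp, 0 with the slide row as a block, 0 with the replicate number as a block, and 1 to 3 when 1 sample was left out. By the brightest probe the number of family genes called was 1, and it was 0 with either block and 3 with the probe of the lowest p for each gene, where 7.34% of all genes were called. When 1 sample was left out it stayed at 1. The number of sialic acid pathway genes called was 5, and it was 3 with the shift to the 75th percentile, 2 after normexp, 0 with either block, 7 with the probe of the lowest p, 7 with no fold threshold, 6 with the filter on dim probes, which adds *St6galnac3*, 4 with the mean over probes, and 1 to 3 when 1 sample was left out. Of 196 values of the member probes under the alternatives, 171 kept their direction and their side of the threshold, 23 lost the call, 1 gained it and 1 changed sign. The value that changed sign was *Siglece*, at 0.01 with the processed values of the authors. The cause of these shifts was not tested. Among the pathway genes named, signal over background limits *St8sia6*, well above it on 4 of 6 arrays, and *Neu3*, on 2 of 6. It limits no member probe. No *Bhlhe41* probe was called under any of these alternatives, which for that gene were added after seeing the data.

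The labels number the samples from 1 to 3 in each genotype. Samples of the same number did not deviate together, with correlations of their deviations from the genotype means over all probes of 0.028, 0.014 and 0.048, and not every sample correlated best with its own number, so the numbers were not read as pairs. With the replicate block, 42 of 56601 probes were called, against 2867 without it, and the pairing left 0 member probes, 0 member genes and 0 pathway genes called.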
